A study of Mus musculus with 6 samples.

Results

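The genes described here encode the proteins with which a mouse cell senses or answers double-stranded RNA (dsRNA), and their transcripts were measured in the livers of mice that carry human NPC1L1. They were taken from a list of 9 genes written from gene function, namely Ddx58, Ifih1, Dhx58, Mavs, Eif2ak2, Adar, Zbp1, Ddx60 and Tlr3. A gene entered when a non-control probe of the array carried one of its RefSeq accessions in the gene table used, which held for 8 of the 9 genes with 12 probes, among 37074 genes on the array. Ddx60 was matched to no probe through this table, which left a part of the accessions on the array without a gene, so a probe of Ddx60 may be among those, and the gene was not analysed here. All 8 matched genes passed the filter on dim probes, which asked that all 3 arrays of 1 group or of both mark the probe as well above background. Tlr3 passed it through its L1-Tg pools, since WT replicate 1 was not well above background. The counts and medians over the members below therefore cover the other 7, except where Tlr3 is said to be counted. Although the group is named for the cytosol, Tlr3 acts in endosomes and Mavs on the outer membrane of mitochondria.

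The question of the comparison was how the livers of L1-Tg and wild-type (WT) mice differ at baseline, on a control fat diet (CFD). The L1-Tg strain, B6;D2-Tg(APOE-NPC1L1)20Lqyu/J, is hemizygous for a transgene with human NPC1L1, a transporter that takes cholesterol back from bile, under the APOE promoter for expression in hepatocytes. They had been backcrossed to C57BL/6J mice for at least 8 generations, and the WT mice were their littermates without the transgene. All mice were males, and the labels give no age and no drug. Each genotype had 3 arrays, and each array held a pool of liver RNA from 2 or 3 mice, so an SD or p given here measures only the spread between these pools, which may be technical in part. The L1-Tg mice belonged to 1 transgenic line, in which an effect of the NPC1L1 protein and an effect of the insertion itself cannot be told apart.

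Cy3-labeled RNA was hybridized to arrays of 62976 spots, of which between 53.1% and 59.2% of the probe spots were well above background and 0 were saturated. A level is given as log2 signal, the log2 of the processed intensity of a probe minus the log2 of the 75th percentile of its array, so that 0 marks the percentile itself. The 6 arrays shared 1 slide, on which WT filled row 1 and L1-Tg filled row 2, and an effect of the row and one of the genotype cannot be told apart. The probe for mouse Npc1l1 does not show the human transgene. All 8 hepatocyte markers were well above background on the 6 arrays, and Alb, the gene of serum albumin, had a mean log2 signal of 10.6 in L1-Tg and 10.7 in WT livers. In whole liver RNA, fewer cells of a type and less RNA per cell cannot be told apart.

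Ddx58 encodes RIG-I and Ifih1 encodes MDA5, helicases that bind viral or misplaced dsRNA and then switch on the adaptor MAVS, which leads to type I interferon. Many of these sensors are themselves interferon-stimulated genes, so that interferon raises the sensors that evoke it. PKR, encoded by Eif2ak2, halts translation when it binds dsRNA, and ADAR1, encoded by Adar, edits adenosines of self dsRNA to inosine and thereby keeps the sensors quiet.

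In the L1-Tg livers 6 of the 7 genes had a higher mean than in WT livers. The receptors Ddx58, Ifih1 and Dhx58 with the Z-form sensor Zbp1 differed by between 1.50-fold and 2.19-fold. Under each of the 5 other scalings or background treatments 7 of 7 were higher, where Mavs was at only 0.0047 to 0.098. The median of all genes moved as well under these treatments, up to 0.08 with the array median. The share of all genes above 0 under them is not given here. No member passed the adjusted threshold of 0.05 in limma, the smallest adjusted p being 0.342, whereas 0.13% of all 22341 genes tested passed it and 0.121% passed it on the higher side. An unadjusted limma p under 0.05 was found for 5 of the 7, all higher in L1-Tg, beside 8.89% of all genes tested, or 4.51% counting the higher ones. The 3 L1-Tg pools lay above the 3 WT pools for 5 of the 7, beside 15.9% of all genes that did not overlap in either direction and 7.21% that did so with L1-Tg higher. A difference above 0 was found for 42.9% of all genes tested. The median log2 difference of the 7 members was 0.58 and that of all genes tested was -0.03. An exact permutation test of 3 against 3 pools cannot give a two-sided p below 0.10.

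The difference index of the study's methods divides the difference of the group means by the sum of the group SDs on the linear scale, with a modulus above 0.7 as the limit. It was above 0.7 for 5 of the 7 members, at 1.84 for Ddx58, 1.46 for Ifih1, 1.41 for Dhx58, 1.14 for Zbp1 and 1.03 for Eif2ak2. Adar had an index of 0.39 and Mavs one of -0.08. Over all genes on the array 30.3% passed the limit in either direction and 8.6% passed it on the higher side, and of the genes tested in limma 11.6% passed it on the higher side.

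**Figure D1:**
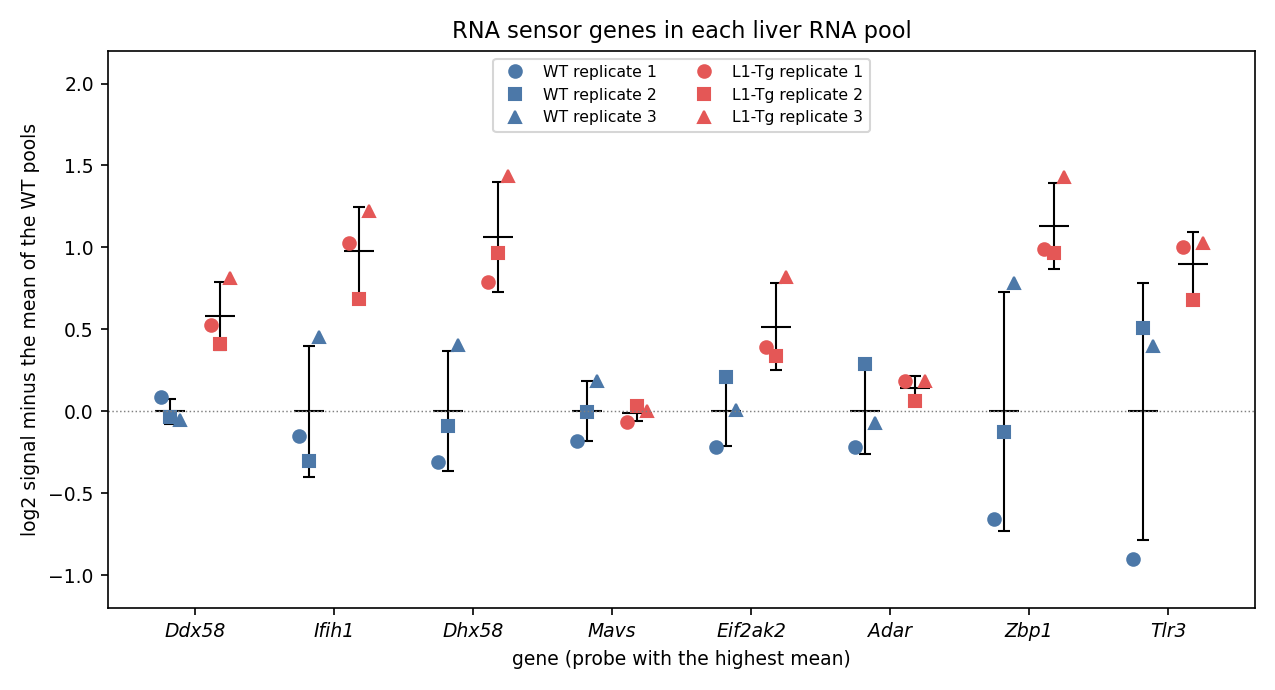
Log2 signal of each RNA sensor gene in each of the 6 pools, minus the mean of the 3 WT pools of that gene, with the group mean as a horizontal line and the SD as an error bar (blue for WT, red for L1-Tg, a symbol per replicate number). The red points lie above all blue points for 6 genes and overlap them for Mavs and Adar, and one of the 6, Tlr3, was not well above background in WT replicate 1.

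The promoters of the members are shown because many interferon-stimulated genes carry an interferon-stimulated response element (ISRE) near their start site. Whether interferon acted on the members in these livers was not tested. RefSeq windows of GRCm38.p6, from 250 bases before to 50 bases after a transcription start, were at hand for 7 of the 9 listed genes, in 9 windows of which Adar had 3, and not for Dhx58 and Zbp1. The ISRE core GAAANNGAAA was searched on both strands, as was the shorter core GAAANNGAA, which every ISRE core contains. The ISRE core was found in the windows of 4 of the 7 genes, Ddx58, Ifih1, Eif2ak2 and Ddx60. It was found in 3.43% of all 32817 windows and, counted by gene, in 1074 of the 26994 genes with a window. The shorter core was found in the same 4 genes and in 1 window of Adar, beside 8.55% of all windows and 2632 of the 26994 genes. Mavs and Tlr3 had neither core in their windows, nor had the other windows of Adar. The gamma-activated site TTCNNNGAA was found in Eif2ak2 and in the same window of Adar, beside 8.29% of all windows and 2578 of the 26994 genes. These matches describe the letters in a window and are not shown binding sites. In the windows below, written 5′ to 3′ on the strand of the gene, capitals mark the matches to either ISRE core on either strand.
Ddx58, chr4:40239776-40240075, minus strand: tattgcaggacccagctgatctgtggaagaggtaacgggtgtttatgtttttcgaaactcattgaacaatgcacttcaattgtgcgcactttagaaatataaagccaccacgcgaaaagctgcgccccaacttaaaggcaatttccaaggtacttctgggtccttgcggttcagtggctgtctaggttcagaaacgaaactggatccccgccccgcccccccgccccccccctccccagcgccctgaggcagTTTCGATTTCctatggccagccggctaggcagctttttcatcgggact
Ifih1, chr2:62646206-62646505, minus strand: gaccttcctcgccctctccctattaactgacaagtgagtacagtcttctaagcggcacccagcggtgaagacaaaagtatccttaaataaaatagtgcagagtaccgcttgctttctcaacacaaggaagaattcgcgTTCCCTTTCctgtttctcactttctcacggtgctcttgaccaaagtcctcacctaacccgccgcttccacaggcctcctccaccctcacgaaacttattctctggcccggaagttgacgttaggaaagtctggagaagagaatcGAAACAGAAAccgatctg
Eif2ak2, chr17:78882523-78882822, minus strand: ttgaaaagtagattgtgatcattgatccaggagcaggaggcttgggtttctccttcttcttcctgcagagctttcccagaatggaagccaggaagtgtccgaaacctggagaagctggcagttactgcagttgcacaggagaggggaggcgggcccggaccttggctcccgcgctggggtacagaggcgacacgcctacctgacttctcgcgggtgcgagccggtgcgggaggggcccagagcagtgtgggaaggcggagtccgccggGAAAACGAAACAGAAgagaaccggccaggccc
Adar, chr3:89730468-89730767, plus strand: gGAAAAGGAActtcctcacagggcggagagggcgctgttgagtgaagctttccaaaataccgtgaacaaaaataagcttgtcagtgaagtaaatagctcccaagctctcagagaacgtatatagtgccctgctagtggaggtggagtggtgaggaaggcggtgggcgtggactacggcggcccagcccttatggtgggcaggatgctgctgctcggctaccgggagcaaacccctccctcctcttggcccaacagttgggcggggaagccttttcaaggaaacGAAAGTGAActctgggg
Mavs, chr2:131233813-131234112, plus strand: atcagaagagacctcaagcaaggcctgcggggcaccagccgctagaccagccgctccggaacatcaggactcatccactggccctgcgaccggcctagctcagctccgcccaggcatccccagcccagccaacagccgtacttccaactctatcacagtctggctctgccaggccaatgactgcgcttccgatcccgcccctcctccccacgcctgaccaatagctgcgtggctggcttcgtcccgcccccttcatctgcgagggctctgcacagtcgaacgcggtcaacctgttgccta
The match of Ddx58 lay at bases 253 to 262 of its window and read on the opposite strand, that of Ifih1 at bases 283 to 292 and that of Eif2ak2 at bases 269 to 278, all within the last 50 bases. The Mavs window is printed as one without a match. The window of Tlr3, also without a match, is not printed. Nor is that of Ddx60, which had 2 ISRE cores and no expression value here. Whether a match goes with a difference between the groups was not tested.

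Ddx58, whose product RIG-I binds short dsRNA with a triphosphate end, had a log2 signal of 2.96, 2.84 and 3.25 in L1-Tg replicates 1, 2 and 3 and of 2.52, 2.40 and 2.38 in WT replicates 1, 2 and 3. The WT pools lay close together and all L1-Tg pools stood above them. The group means were 3.02 ± 0.21 (SD, n = 3 pools) and 2.43 ± 0.08, which is a log2 difference of 0.58 (standard error 0.13, 95% interval 0.27 to 0.90, 1.50-fold, limma adjusted p = 0.342). A second, dimmer probe of Ddx58 gave a difference of 0.81 without overlap.

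Ifih1, whose product MDA5 binds long dsRNA, had a log2 signal of 3.13, 2.79 and 3.32 in the L1-Tg replicates and of 1.95, 1.80 and 2.56 in the WT replicates. The highest WT pool, replicate 3, lay just below the lowest L1-Tg pool, replicate 2, and the groups did not overlap. The difference was 0.98 on the log2 scale (standard error 0.23, 95% interval 0.41 to 1.54, 1.97-fold, limma adjusted p = 0.382). The dimmer probe of Ifih1 gave 0.93, also without overlap.

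Dhx58 encodes LGP2, a relative of both helicases that binds dsRNA but lacks the signaling domain and tunes the response of the others. Its log2 signal was 0.60, 0.77 and 1.25 in the L1-Tg replicates and -0.50, -0.28 and 0.21 in the WT replicates. Every L1-Tg pool exceeded every WT pool, and replicate 3 was the highest of each group. A log2 difference of 1.06 resulted (standard error 0.24, 95% interval 0.48 to 1.65, 2.09-fold, limma adjusted p = 0.351).

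Mavs, the adaptor on which RIG-I and MDA5 converge, had a log2 signal of 3.40, 3.50 and 3.46 in the L1-Tg replicates and of 3.28, 3.46 and 3.65 in the WT replicates. The L1-Tg pools lay inside the range of the WT pools. The difference was -0.01 with a 95% interval from -0.30 to 0.27 (limma adjusted p = 0.984), so a difference of the size measured for Ddx58 lies outside this interval. The sign of the Mavs difference turned under all 5 other scalings or background treatments, under which it lay between 0.0047 and 0.098.

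Eif2ak2, which encodes the kinase PKR, had a log2 signal of -0.23, -0.29 and 0.20 in the L1-Tg replicates and of -0.84, -0.42 and -0.61 in the WT replicates. The groups did not overlap, and the gap between L1-Tg replicate 2 and WT replicate 2 was the smallest among the separated genes. The log2 difference was 0.52 (standard error 0.18, 95% interval 0.09 to 0.94, 1.43-fold, limma adjusted p = 0.515).

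Adar was represented by its brighter probe, with a log2 signal of 2.51, 2.38 and 2.50 in the L1-Tg replicates and of 2.10, 2.61 and 2.25 in the WT replicates. WT replicate 2 was the highest of all 6 pools, and the groups overlapped. The brighter probe differed by 0.14 between the groups (95% interval -0.21 to 0.50, limma adjusted p = 0.753). Without WT replicate 1 it differed by 0.035, and without WT replicate 2 by 0.29, with groups that no longer overlapped. The dimmer probe read 0.63, 0.64 and 0.88 in the L1-Tg replicates and 0.21, 0.44 and 0.32 in the WT replicates. On that probe the groups did not overlap and differed by 0.39 with a standard error of 0.12 (limma adjusted p over all probes = 0.496). The probes carry the same RefSeq accession, and which of them follows the transcripts of Adar better was not tested.

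Zbp1 encodes a sensor of the left-handed Z-form of nucleic acids, which can start necroptosis through RIPK3 and MLKL. Its log2 signal was 3.15, 3.12 and 3.58 in the L1-Tg replicates and 1.50, 2.02 and 2.94 in the WT replicates. On this brighter probe the L1-Tg pools lay close together, whereas WT replicate 3 stood well above the other WT pools and just below the L1-Tg pools. The log2 difference of 1.13 was the highest of the members in this fit (standard error 0.36, 2.19-fold with a 95% interval of 1.19-fold to 4.01-fold, limma adjusted p = 0.498). Without WT replicate 1 it was 0.80 and without WT replicate 3 it was 1.52. The dimmer probe, which carries another RefSeq accession, read 0.48, 0.42 and 0.88 in the L1-Tg replicates. In WT replicates 1, 2 and 3 it read -1.37, -0.32 and -0.35, so WT replicate 3 did not stand above WT replicate 2. The dimmer probe gave a difference of 1.27 and no overlap.

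Tlr3 encodes the endosomal receptor for dsRNA. Its log2 signal was -3.53, -3.85 and -3.51 in the L1-Tg replicates and -5.44, -4.02 and -4.13 in the WT replicates, and its probe was well above background in all 3 L1-Tg pools and in 2 of the 3 WT pools. The groups did not overlap, and WT replicate 1 was far below the other WT pools. The fit gave 0.90 (standard error 0.38, 95% interval -0.01 to 1.82, limma adjusted p = 0.561), a value that rests on a WT replicate 1 not well above background and is not a measured difference. Without that pool it was 0.45, and with a normexp background correction it was 0.16.

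Of the 11 probes other than that of Tlr3, 10 had a higher mean in L1-Tg livers and 9 separated the groups, beside 6.92% of all 29446 probes tested that did so with L1-Tg higher. An unadjusted limma p under 0.05 was reached by 9 of the 11, all higher, beside 4.29% of all probes. None passed the adjusted threshold in limma, which 0.0917% of all probes passed. The difference at the dimmer probes of Ddx58 and Ifih1 was 0.43 for each after the normexp correction, less than the 0.81 and 0.93 without it.

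**Figure D2:**
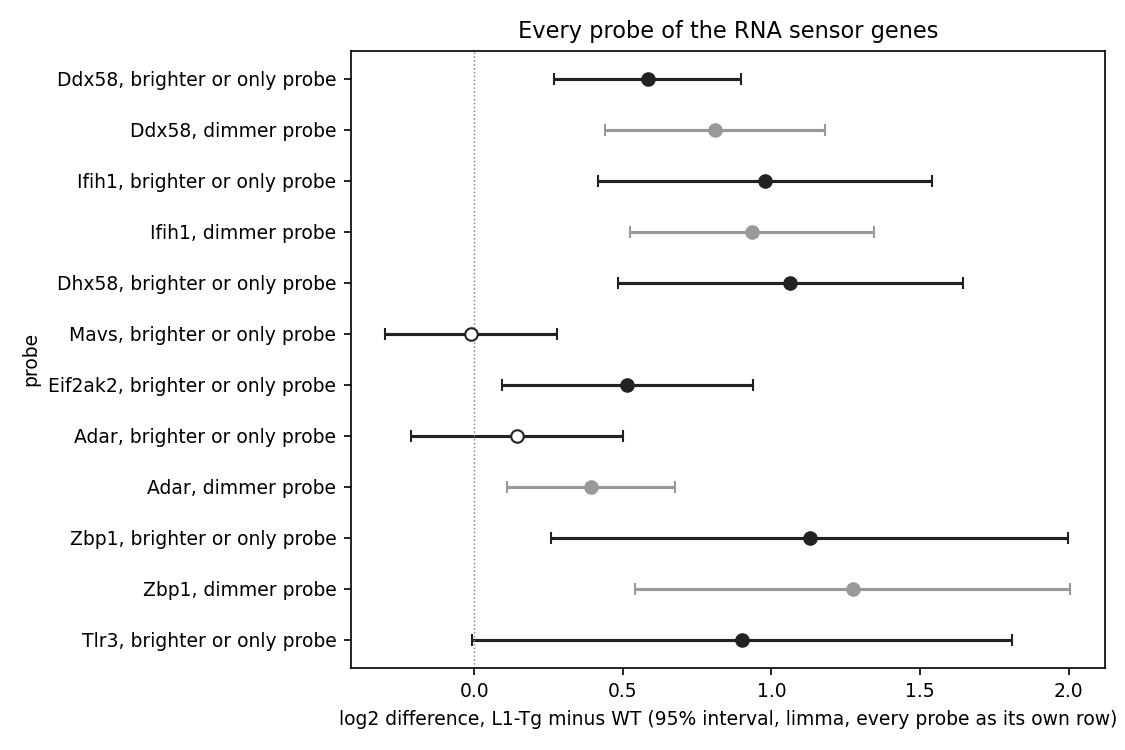
Log2 difference, L1-Tg minus WT, of each of the 12 probes with its 95% interval from limma (black for the brighter or only probe of a gene, grey for the dimmer one, filled where the groups did not overlap). The intervals of Mavs, the brighter Adar probe and Tlr3 reach 0, and the other 9 lie above it.

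The members varied between pools of a genotype as well. Relative to the mean of the WT pools, the median over the 7 members was 0.53, 0.41 and 0.82 in L1-Tg replicates 1, 2 and 3 and -0.22, -0.03 and 0.19 in WT replicates 1, 2 and 3. With Tlr3 counted, L1-Tg replicate 3 was the highest of its group for 6 of the 8 genes, and L1-Tg replicate 2 was the lowest of its group for 6. WT replicate 1 was the lowest of its group for 6 genes, and WT replicate 3 the highest for 4.

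Markers of other cell types moved with some of these pools. All 7 Kupffer cell markers tested had a higher mean in L1-Tg livers, with a median log2 difference of 0.30 and 0 at an unadjusted limma p under 0.05. Without WT replicate 1 the median was 0.086 with 5 of 7 higher, and without WT replicate 3 it was 0.58. Their summed signal, in multiples of the 75th percentile, lay between 148 and 173 in L1-Tg pools and between 93.4 and 173 in WT pools, with the lowest sum in WT replicate 1 and the highest WT sum in replicate 3. Of the 4 neutrophil markers tested, Mpo and Retnlg passed the filter through their L1-Tg pools, and the other 2 had higher means in L1-Tg livers. The median log2 difference of those 2 was 0.93. Over all 4, Mpo and Retnlg included, it was 0.90, and 0.45 with the normexp correction. The summed signals of all 5 neutrophil markers on the array, dim ones included, were 3.55 to 7.12 in L1-Tg and 1.64 to 4.56 in WT pools. Of the 9 lymphocyte markers tested, Cd8a and Cd79a passed the filter through their L1-Tg pools, and of the other 7, 3 were higher and 4 lower with a median of -0.06. The sums over all 10 lymphocyte markers on the array, dim ones included, were 90.2 to 107 in L1-Tg and overlapped the 101 to 238 in WT pools. Cd4 alone made up between 83.1% and 91.5% of these sums. No defining marker of these lists was at 0, and 1 lymphocyte and 1 neutrophil marker missed the filter on dim probes. The 4 erythroid markers had higher means, with a median of 0.28, but without L1-Tg replicate 2, which had the highest sum (220 beside 106 to 124 in the other pools), the median was 0.10 and 3 of 4 were higher. Of the endothelial markers 4 were higher and 1 lower, of the stellate cell markers 1 and 4, of the cholangiocyte markers 1 and 2 (Krt7, 1 of the lower ones, passed the filter through its WT pools), and of the plasmacytoid dendritic cell markers 3 and 2. Of the 8 hepatocyte markers 7 had a lower mean, with a median of -0.21, which was -0.10 after quantile normalization and with the array median. Their groups did not overlap for Apoa1, a main protein of high-density lipoprotein, at -0.49 (-0.32 without WT replicate 1), and for Ass1, an enzyme of the urea cycle, at -0.36 (-0.16 after quantile normalization). The part of these cell types in the differences of the RNA sensor genes was not tested.

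The other genes of the pathways were taken from 5 lists with 73 genes on the array, of which 71 were tested. Of these, 44 were higher and 27 lower in L1-Tg livers, 0 passed the adjusted threshold, 7 higher genes and 1 lower gene had an unadjusted limma p under 0.05 (4.51% and 4.38% of all genes tested), and the smallest adjusted p was 0.299. The groups did not overlap for 12 higher and 6 lower genes, beside 7.21% and 8.69% of all genes tested, and the median difference was 0.05.

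Among 23 cofactors of the RIG-I-like receptors, 12 were higher and 11 lower, with a median of 0.03. Znfx1, a mitochondrial RNA sensor that works with MAVS, had a difference of 0.57, and Zc3hav1, a zinc-finger antiviral protein, one of 0.34. Cyld, a deubiquitinase that restrains RIG-I, was lower with a difference of -0.28. The groups did not overlap for these 3 genes, and the limma adjusted p was 0.343, 0.544 and 0.548.

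In the list for the relay of MAVS and TLR3, which also held genes for the traffic of TLR3, 15 of 22 genes were higher. The other 7 were lower, and the median was 0.09. Traf3, the ubiquitin ligase that links MAVS to the kinases of interferon induction, read 2.05, 1.74 and 2.02 in the L1-Tg replicates and 1.32, 1.36 and 1.43 in the WT replicates. Its groups were well apart, with a difference of 0.57 (limma adjusted p = 0.299). Ikbkg, the regulatory subunit of the IKK complex, differed by 0.38 without overlap (limma adjusted p = 0.552). Leaving out WT replicate 1 gave 0.22 for Ikbkg. Irf7, the interferon-induced factor that amplifies interferon transcription, was chosen for mention after its values were seen. It had the highest difference of the lists, 1.66, with a log2 signal of 3.50, 3.02 and 3.68 in the L1-Tg replicates and 0.80, 1.22 and 3.19 in the WT replicates. WT replicate 3 lay inside the range of the L1-Tg pools, so the groups of Irf7 overlapped (limma adjusted p = 0.536). In this list the groups did not overlap for 6 higher and 2 lower genes. The 2 lower ones were Tradd, at -0.17 (limma adjusted p = 0.615), and Irf3, at -0.13 (limma adjusted p = 0.644).

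The 6 partners of Zbp1 in cell death had 5 higher and 1 lower, with a median of 0.16. Mlkl, the executioner of necroptosis, had a log2 signal of 1.34, 0.70 and 1.58 in the L1-Tg replicates and of -0.14, -0.04 and 0.35 in the WT replicates. Its groups did not overlap and L1-Tg exceeded WT by 1.15 (standard error 0.25, 2.22-fold, limma adjusted p = 0.342). Casp8, the protease that holds necroptosis back, differed by 0.26 without overlap (limma adjusted p = 0.552). Ripk3, the kinase between ZBP1 and MLKL, was looked up after the others and overlapped, with a difference of 0.30 (limma adjusted p = 0.727) that was 0.02 without WT replicate 1 and 0.54 without WT replicate 3.

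For PKR and the integrated stress response, 8 of 12 genes were higher and 4 lower, with a median of 0.11 and 0 at an unadjusted limma p under 0.05. The smallest p belonged to Nck1, an adaptor that restrains the eIF2alpha kinases, with a difference of 0.28, and to Ppp1r15a, which encodes the stress-induced subunit of the eIF2alpha phosphatase, with -0.26. Of 14 tested genes for RNA editing and dsRNA binding, 8 were higher and 6 lower, with a median of 0.03 and again 0 at an unadjusted limma p under 0.05. The smallest p belonged to Dhx9, a nuclear RNA helicase, at -0.27 and to Adad1, a testis relative of the editing enzymes, at -0.56. Dhx9 was at -0.15 without L1-Tg replicate 2 and at -0.09 with normexp, and Adad1 at -0.32 without WT replicate 1 and at -0.29 with normexp.

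**Figure D3:**
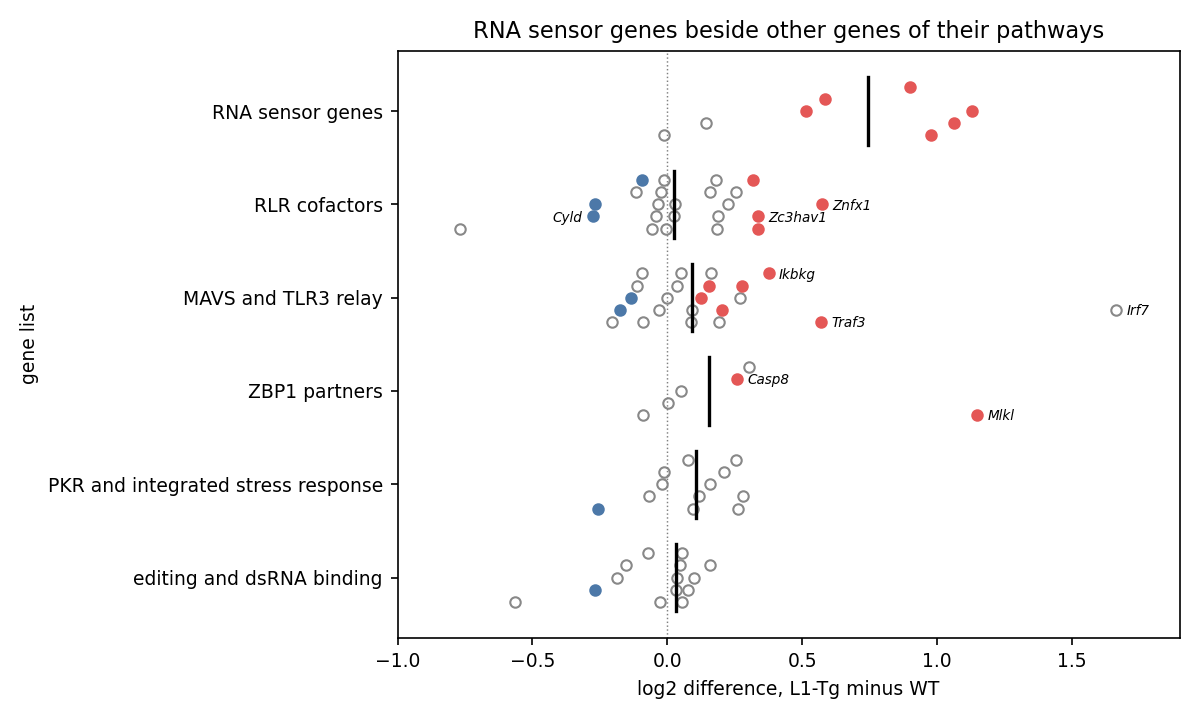
Log2 difference, L1-Tg minus WT, of the RNA sensor genes and of the tested genes of 5 pathway lists, with a point for each gene (red or blue where the groups did not overlap and L1-Tg was higher or lower, open where they overlapped) and the median as a vertical line. The median of the RNA sensor genes is 0.74 with Tlr3, 0.58 without it, and those of the lists lie between 0.03 and 0.16.

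For each separated member, the 3 genes with the most similar profile over the 6 arrays were sought among 13397 tested genes with a symbol, by the root mean square (RMS) difference of the log2 signals after each gene's mean was subtracted. Ddx58 was closest to Exoc4 (0.06), a subunit of the exocyst, followed by Nenf and Cldn2. Ifih1 was closest to Nqo1 (0.10), a quinone reductase, followed by Naip2 and Phf11b, and Dhx58 to Slc7a1 (0.13), an importer of cationic amino acids, followed by AW011738 and Naip2. Eif2ak2 was closest to Atp11a (0.07), a phospholipid flippase, followed by Cox6a2 and Itpripl2. Zbp1 was closest to Mpeg1 (0.12), which encodes the macrophage protein perforin-2, followed by Galnt3 and Phf11a. Tlr3, not well above background in WT replicate 1, was closest to Ms4a4b (0.11), a gene of lymphocytes, followed by Ccdc103 and Gbp7. No member was among the 3 nearest genes of another member. Among the members themselves Ddx58 and Eif2ak2 were the closest pair with an RMS difference of 0.17, and Mavs and Zbp1 the farthest with 0.67.

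**Figure D4:**
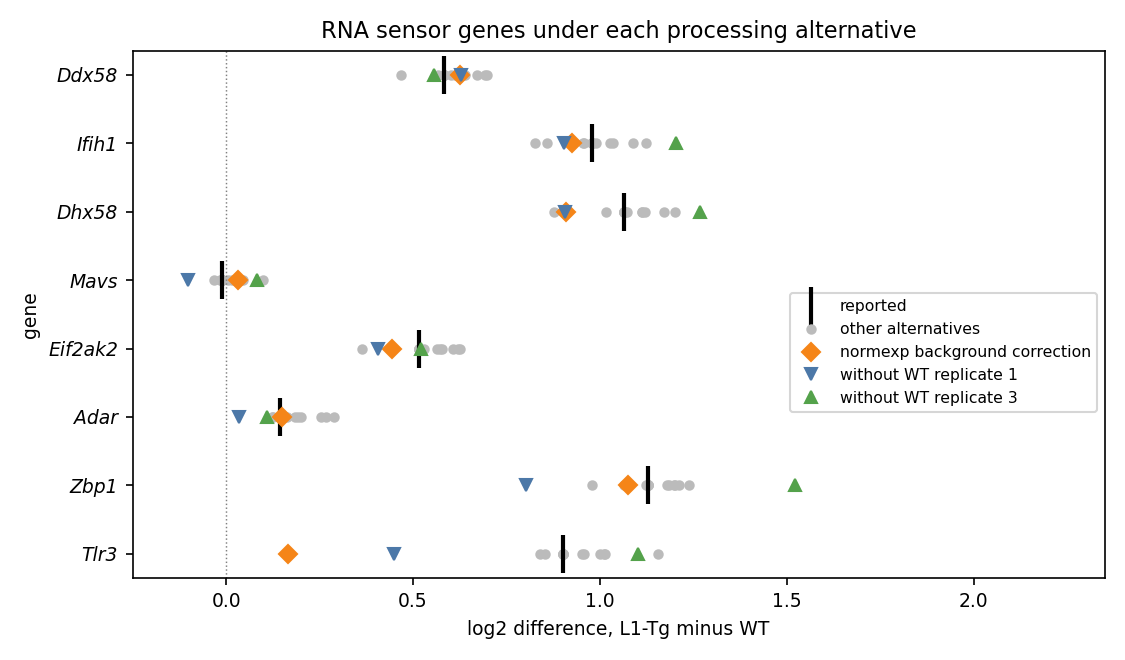
Log2 difference, L1-Tg minus WT, of each RNA sensor gene as reported (black bar) and under the other processing settings (grey points), with the normexp correction and the fits without WT replicate 1 or 3 in color. Tlr3 lies at 0.90 as reported and at 0.16 with normexp, Zbp1 spans 0.80 to 1.52, and Mavs lies on both sides of 0.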

How the data were processed

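Liver RNA of 3 WT and 3 L1-Tg pools was measured on 1-color arrays (Cy3), 1 array per pool. The authors scanned the arrays and used Agilent Feature Extraction 10.10.1.1 (version from the headers) to read the images, and the deposited processed signal is an intensity on the linear scale, from which the local background had been taken and which had no scaling across arrays. The authors also deposited marks for spots well above background, median intensities of spot and local background, and a matrix in which each array's processed signals are multiplied by 1 factor.

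Control spots were left out, non-uniform spots were set to missing and repeated probes were averaged. Of 28685 probes named by a RefSeq-type accession, 27235 were matched to a gene. For a gene with several probes the one of highest mean signal was used, and 22341 genes were tested, those marked well above background throughout WT, throughout L1-Tg or throughout both. log2 signals minus the array's 75th percentile were compared by two-sided tests in limma 3.58.1 (lmFit, then eBayes; R 4.3.3). The p-values were adjusted by the Benjamini-Hochberg method for all genes that entered the fit, with 0.05 as the threshold. Precision is limited by having 3 arrays per group, and dim probes depend most on the background correction. The labels do not say that the pools with equal replicate numbers belong together, so no block was used.

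The alternatives were other scalings, normexp (offset 50, run on the median spot intensity in place of the planned mean), the deposited matrix, other filters and probe rules, a test without moderated variances, the replicate block and leaving out each pool. The lists under these settings, and the counts without genes dim on some array, were added after the data were seen. In simulated data for this comparison with 22341 genes, 57% of genes changed by a log2 difference of 1 were called. This share holds for the spread that was simulated and is not the chance that a single member would be called.

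The members, the pathway and marker lists and the tests were chosen with earlier results of these data known. Named beside the members were, in each pathway list, up to 6 genes whose groups do not overlap with an unadjusted p under 0.05, otherwise the 2 with the smallest p, the hepatocyte markers, and the 3 nearest profiles of each separated member. Other names were chosen after their values were seen.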

Additional observations from a re-analysis of the deposited data

How the results depend on the processing

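No RNA sensor gene passed the adjusted threshold under any setting run, and limma adjusted p values went no lower than 0.140, for Zbp1 without WT replicate 3. Counting Tlr3, 6 of the 8 RNA sensor genes did not overlap and the median of the 8 was 0.74. For the 7 genes well above background on every array these values were 5 and 0.58. Over the settings the number without overlap was between 5 and 7. Tlr3 was counted except where all 6 arrays had to be well above background. With 1 pool left out the number was between 6 and 7. Groups of 2 and 3 pools separate more easily than groups of 3 and 3, so the 7.21% of all genes in the main fit is no baseline there. The shares over all genes for those fits are not given here. With Tlr3 counted, the median log2 difference lay between 0.53, with the normexp correction, and 0.86, over single probes. With 1 pool left out it lay between 0.54 and 0.84. Among the 7 genes without Tlr3, the median as reported was the value of Ddx58. Ddx58 was at 0.63 with normexp, 0.47 without L1-Tg replicate 3 and 0.67 without L1-Tg replicate 2. Mavs, at -0.01 as reported, changed sign to 0.0047 after quantile normalization, 0.098 with the array median, 0.045 without scaling, 0.032 with normexp and 0.038 in the deposited matrix, and lay between -0.10 (without WT replicate 1) and 0.082 (without WT replicate 3) with 1 pool left out, also positive at 0.015 without L1-Tg replicate 1. The array median moved the median of all genes from -0.03 to 0.08 and that of the RNA sensor genes, with Tlr3 counted, from 0.74 to 0.85. The other members kept their direction in every setting. With Tlr3 counted, 6 RNA sensor genes passed the difference index. Asking for at least a 2-fold change as well left 2 of these 6, Dhx58 and Zbp1. With 1 pool left out, 6 to 7 passed the index. The shares over all genes are not given for the 2-fold and left-out counts. Across the array, 29 genes were called, 10 without a filter on dim probes, 0 by a test that does not moderate variances (1771 genes, 3 of them RNA sensor genes, at an unadjusted p under 0.05) and between 15 and 36 with 1 pool left out. With the replicate number as a block, 11 genes were called and the lowest adjusted p of a member was 0.144, for Dhx58. The deviations of equally numbered pools correlated at -0.16, 0.11 and 0.02, and those of unequally numbered pools between -0.17 and 0.17. With 3 pools per group these values cannot show whether the numbers pair the pools. The 7 members other than Tlr3 were measured in all 6 pools, and for Tlr3 and the dimmer probes the signal over background limits what can be said.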
